A study of Mus musculus with 8 samples.

Results

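CSF1 and IL34 are the secreted growth factors that keep microglia alive, and CSF1R is the receptor they share. The lumbar spinal cord RNA of *SOD1G93A* mice was examined for 7 genes of this axis, *Csf1*, *Il34*, *Csf1r*, *Csf2ra*, *Csf2rb*, *Csf2rb2* and *Csf3r*. The 7 genes were picked by symbol from the 55291 genes of the count table and not by their values, though earlier results of these data were known. All 7 were among the 19470 genes with enough counts to be tested.

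The comparison was between 2 groups of 4 males, all *SOD1G93A* and *Cx3cr1* Cre/+. In the *Ager*-deleted group (E1776, E5231, E5248, E5568) both *Ager* alleles were floxed (*Ager* fl/fl), and in the Cre-expressing control group (E5386, E5642, E6578, E6732) both were wild type (*Ager* +/+). It addresses whether removing *Ager*, the gene encoding RAGE, from *Cx3cr1*-expressing cells alters gene expression in the diseased cord. All 8 mice were C57BL/6 and carried the mutant *SOD1* transgene, and all had 1 *Cx3cr1* allele replaced by an inducible Cre, so the controls were also heterozygous for *Cx3cr1*. Each received 5 injections of 0.2 μg tamoxifen at 12 weeks of age, according to the labels, whereas the methods of the study place the deletion slightly later. The mice were 120 days old by the labels, whereas the study describes the tissue as taken at the humane endpoint. *Cx3cr1* drives Cre in microglia and in other *Cx3cr1*-expressing myeloid cells, and mice without the *SOD1* transgene are not analysed here.

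In the healthy central nervous system, neurons are the main source of IL34, glia supply much of the CSF1, and CSF1R is carried by microglia, border macrophages and monocytes. Binding of either ligand leads CSF1R to phosphorylate itself and to signal through adaptors, PI3K and ERK, and blocking the receptor depletes microglia. The other receptors belong to a separate family without kinase activity of their own, which signals through JAK2 and STAT5 or STAT3. CSF2RA binds GM-CSF and CSF2RB is the signaling chain that it shares with the IL3 and IL5 receptors. *Csf2rb2* encodes a second mouse chain that pairs with the IL3 receptor only, and CSF3R binds G-CSF, the growth factor of neutrophils.

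Between 31148047 and 40324897 counts fell on genes in each mouse, and the 3 counts used as a detection floor equal 0.0729 to 0.0975 CPM, where CPM is the count of a gene relative to its library total. Levels below are CPM after edgeR's TMM normalization, log2 fold changes are *Ager*-deleted over control, and tests across genes are edgeR's exact test and edgeR's quasi-likelihood test with Benjamini-Hochberg adjustment. The summed level of 20 skeletal muscle genes was 1204 CPM in control E5386 and 1759 CPM in control E5642, compared with 92.9 to 119.7 CPM in the remaining 6 mice. In addition, the mean log2(CPM + 1) of 6 liver genes was 6.53 in control E6732 and between 2.41 and 2.77 in the other 7. All 14 neuron and 8 motor neuron genes of the marker lists were detected, with summed levels of 5728 to 7425 and 213 to 309.6 CPM. In whole-cord RNA, fewer cells of a type and less RNA per cell cannot be told apart. The targeted gene *Ager* stood at 0.889 CPM in E1776, 1.51 in E5231, 1.02 in E5248 and 1.34 in E5568, the *Ager*-deleted mice. The controls had 1.53 CPM in E5386, 2.22 in E5642, 2.18 in E6578 and 2.41 in E6732. The 4 controls were all higher than the 4 *Ager*-deleted mice, at a log2 fold change of -0.81 (SE 0.22), with an exact two-sided permutation p of 0.0286, the smallest for 4 mice against 4. Adjusted over all genes, its p was 0.252 (edgeR's exact test) and 0.705 (quasi-likelihood test).

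None of the 7 axis genes passed either test between the genotypes. With edgeR's exact test 0 of 7 had an adjusted p under 0.05 and 0 of 7 had an unadjusted p under 0.05, against 14 (0.0719%) and 829 (4.26%) of all 19470 genes tested. The quasi-likelihood test called 0 of the 7 as well, against 1 gene (0.00514%) of all tested, and so did DESeq2 and limma-voom. The mice of the genotypes overlapped for each of the 7, whereas they did not overlap for 755 genes (3.88%) of all tested. The median log2 fold change of the 7 genes was -0.06, with 2 above 0 and 5 below, and that of all tested genes was 0.0069.

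*Csf1*, on chromosome 3 of GRCm38 (mm10), reverse strand, from 107741048 to 107760469, was the more abundant ligand. It reached 159 CPM in E1776, 151 in E5231, 117 in E5248 and 137 in E5568, the *Ager*-deleted mice. Controls gave 156 CPM in E5386, 129.9 in E5642, 136 in E6578 and 146 in E6732. The highest and the lowest mouse were both *Ager*-deleted, and the 4 controls lay between them. *Ager*-deleted mice averaged 141 ± 18.2 CPM and controls 142 ± 11.5 CPM (SD, n = 4 each), for a log2 fold change of -0.01 (SE 0.10). An exact two-sided permutation test of the mice gave p = 0.943, and edgeR's adjusted p was 1 (exact) and 0.992 (quasi-likelihood). The 95% interval of the log2 fold change, from -0.23 to 0.20, leaves outside it any change larger than 1.17-fold in either direction. *Csf1* had 4154 to 6245 counts per mouse, so counting error was small beside the spread between mice.

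*Il34*, the second CSF1R ligand, lies on the reverse strand of chromosome 8 from 110741829 to 110805924. It stood at 15.6 CPM in E1776, 19.5 in E5231, 15.9 in E5248 and 18.2 in E5568, the *Ager*-deleted mice. In controls it was 13.5 CPM in E5386, 19.7 in E5642, 20.0 in E6578 and 19.7 in E6732. The controls fell into 3 mice that lay above all *Ager*-deleted mice and 1, E5386, that lay below all of them. *Ager*-deleted mice averaged 17.3 ± 1.88 CPM and controls 18.2 ± 3.13 CPM (SD, n = 4 each), for a log2 fold change of -0.07 (SE 0.13, 95% interval -0.37 to 0.22). The exact two-sided permutation p was 0.743, against adjusted values of 1 and 0.941 from edgeR's exact and quasi-likelihood tests. Without E5386 the log2 fold change was -0.20, which edgeR's exact test did not call (adjusted p = 0.996). The difference in mean log2(CPM + 1) was then -0.19, with an exact two-sided permutation p of 0.0571, where 3 mice against 4 cannot go below 0.0286. In that mouse the summed level of 10 genes of leptomeninges and fibroblasts was 157 CPM, the lowest of all 8, against 654 to 752 CPM in the other 3 controls and 283 to 569 CPM in *Ager*-deleted mice. All 10 of these genes were detected, with log2 fold changes from -0.91 to -0.10. The sum of 10 border macrophage genes was also lowest in that mouse, at 55.9 CPM, against 93.7 to 104.5 CPM in the other 3 controls and 74.7 to 101.4 CPM in *Ager*-deleted mice. All 10 were detected and 0 were called, and the part of either list in the *Il34* values was not tested. *Il34* shares 22 and 75 exon bases with the antisense genes *Gm15894* and *Gm15895*, which had at most 13 and 5 counts in a mouse against 495 to 811 for *Il34*.

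**Figure D1:**
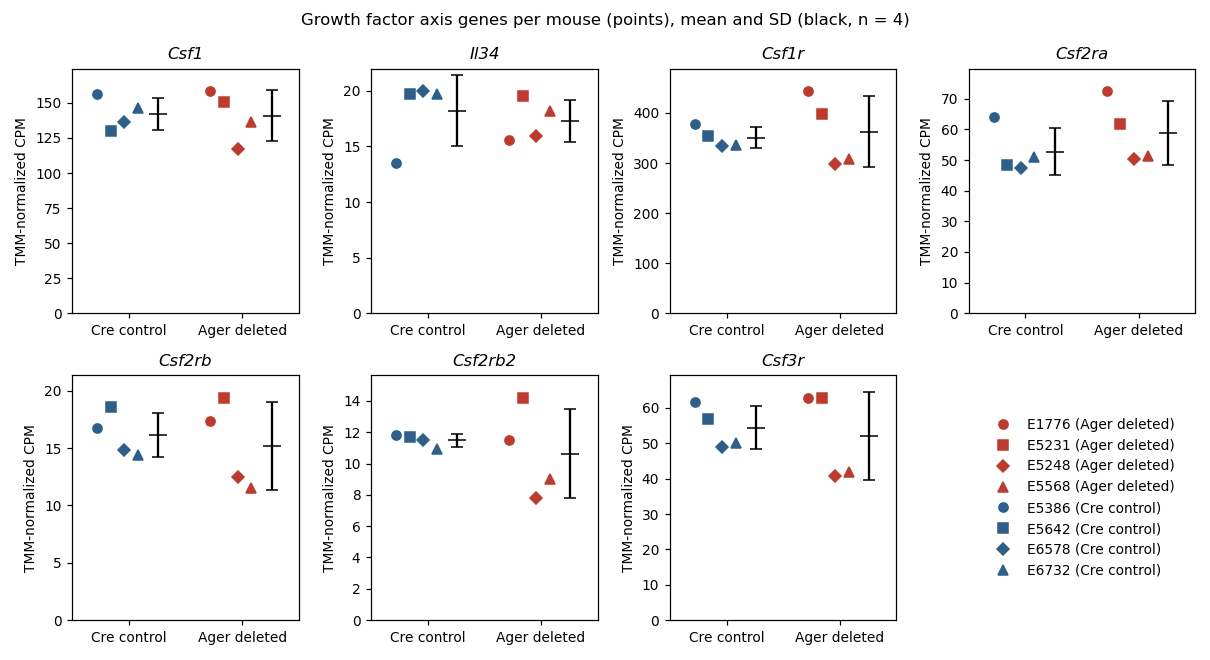
TMM-normalized CPM of the 7 axis genes in each of 8 mice, with controls in blue, *Ager*-deleted mice in red and the mean and SD of the 4 mice of each genotype in black. The genotypes overlap in every panel. For *Csf1r* and *Csf3r*, 2 *Ager*-deleted mice lie above and 2 below all 4 controls, and for *Il34* control E5386 lies at 13.5 CPM, below the other 7 mice.

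*Csf1r*, the receptor for both ligands, lies on the forward strand of chromosome 18 from 61100598 to 61132149. It came to 444 CPM in E1776, 398 in E5231, 297 in E5248 and 309 in E5568, the *Ager*-deleted mice. Control levels were 378 CPM in E5386, 355 in E5642, 335 in E6578 and 335 in E6732. The *Ager*-deleted mice split around the controls, with E1776 and E5231 above all 4 of them and E5248 and E5568 below. *Ager*-deleted mice averaged 362 ± 70.8 CPM and controls 351 ± 20.4 CPM (SD, n = 4 each), for a log2 fold change of 0.05 (SE 0.12, 95% interval -0.23 to 0.32). An exact two-sided permutation test of the mice gave p = 0.886, and edgeR's adjusted p was 1 (exact) and 0.961 (quasi-likelihood). The largest change that the interval holds is 1.25-fold. The summed level of 22 microglia genes, all detected in every mouse, split the same way for the *Ager*-deleted mice, with 3335 CPM in E1776 and 3849 in E5231, 2124 in E5248 and 2541 in E5568, against 2783 to 3191 CPM in controls. Of these 22 genes 0 were called, 4 log2 fold changes lay above 0 and 18 below, and the median was -0.05. The unadjusted p of edgeR's exact test was under 0.05 for 2 of them, against 4.26% of all tested genes. Both are named for that reason, after their values were seen. *Gpr34*, a lysophosphatidylserine receptor gene, was at 22.9 and 30.5 CPM in *Ager*-deleted mice and controls (log2 fold change -0.42, SE 0.09, edgeR's adjusted p = 0.0848 exact and 0.705 quasi-likelihood). *P2ry12*, an ADP receptor gene of homeostatic microglia, was at 27.9 and 34.7 CPM (log2 fold change -0.32, SE 0.09, edgeR's adjusted p = 0.507 and 0.705). In both, all 4 controls lay above all 4 *Ager*-deleted mice, where 3.88% of all tested genes do not overlap in either direction. The pair was picked for its small p-values, which favors such a separation. The part of the microglia genes in the *Csf1r* values was not tested. *Csf1r* shares 873 exon bases, 15.1% of its exon length, with *Hmgxb3* on the opposite strand, which was at 3.19 CPM per kilobase of exon against 61.7 for *Csf1r*, and the strand setting of the counting is not given in the sources used here.

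*Csf2ra*, encoding the GM-CSF-binding chain, lies on the reverse strand of chromosome 19 from 61223957 to 61228429. It reached 72.6 CPM in E1776, 61.7 in E5231, 50.4 in E5248 and 51.2 in E5568, the *Ager*-deleted mice. Among controls it was 64.0 CPM in E5386, 48.3 in E5642, 47.5 in E6578 and 51.1 in E6732. E1776 lay above all controls, E5642 and E6578 lay below all *Ager*-deleted mice, and the other 5 mice overlapped. With 59.0 ± 10.4 CPM in *Ager*-deleted mice and 52.7 ± 7.66 CPM in controls (SD, n = 4 each), its log2 fold change of 0.16 was the largest of the 7 in size (SE 0.13, 95% interval -0.13 to 0.46). The exact two-sided permutation p was 0.286, against adjusted values of 1 and 0.842 from edgeR's exact and quasi-likelihood tests.

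*Csf2rb* and *Csf2rb2* are near-identical neighbors on chromosome 15, *Csf2rb* from 78325752 to 78353847 on the forward strand and *Csf2rb2* from 78282507 to 78305721 on the reverse strand. Their coding sequences have 2688 and 2634 bases, of which 2503 of 2628 aligned bases (95.2%) are identical. The longest stretch they share without a difference has 242 bases and starts at coding position 2083 in both, and it is shown because a read pair that falls wholly within it fits both genes.
Csf2rb and Csf2rb2, shared coding stretch: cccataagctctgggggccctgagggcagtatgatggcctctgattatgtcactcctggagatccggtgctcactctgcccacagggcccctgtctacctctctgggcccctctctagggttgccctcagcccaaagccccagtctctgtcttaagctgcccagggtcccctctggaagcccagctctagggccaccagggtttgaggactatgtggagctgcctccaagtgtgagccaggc
In contrast, the 60 coding bases in which they differ most, starting at position 304 of *Csf2rb* and 307 of *Csf2rb2*, hold 13 differences, which are in capitals.
Csf2rb, most different coding window: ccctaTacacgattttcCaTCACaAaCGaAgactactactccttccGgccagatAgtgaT
Csf2rb2, most different coding window: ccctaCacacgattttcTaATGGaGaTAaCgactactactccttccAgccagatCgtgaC
Of all 50-base stretches of the *Csf2rb* coding sequence, 18.4% also occur in *Csf2rb2*, and 6.96% of its 100-base stretches do. The shares are 19.0% and 7.20% for *Csf2rb2* in *Csf2rb*. The levels of both genes are therefore uncertain, since the treatment of reads from shared stretches is not given in the sources used here.

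With that limit, *Csf2rb* stood at 17.4 CPM in E1776, 19.4 in E5231, 12.5 in E5248 and 11.5 in E5568, the *Ager*-deleted mice. The control values were 16.8 CPM in E5386, 18.6 in E5642, 14.8 in E6578 and 14.4 in E6732. E5248 and E5568 lay below all controls, and E5231 lay above them. Means of 15.2 ± 3.81 CPM in *Ager*-deleted mice and 16.2 ± 1.94 CPM in controls (SD, n = 4 each) gave a log2 fold change of -0.09 (SE 0.17, 95% interval -0.46 to 0.28). An exact two-sided permutation test of the mice gave p = 0.6, and edgeR's adjusted p was 1 (exact) and 0.944 (quasi-likelihood). *Csf2rb2* stood at 11.5 CPM in E1776, 14.2 in E5231, 7.79 in E5248 and 8.99 in E5568. Its control values, in the same order as above, were 11.8, 11.7, 11.5 and 10.9 CPM. The 4 controls were close together, at 11.5 ± 0.403 CPM (SD, n = 4), while the *Ager*-deleted mice ranged around them at 10.6 ± 2.83 CPM (SD, n = 4). The log2 fold change of *Csf2rb2* was -0.11 (SE 0.16, 95% interval -0.48 to 0.25). The exact two-sided permutation p was 0.429, against adjusted values of 1 and 0.926 from edgeR's exact and quasi-likelihood tests. Both intervals hold changes of up to 1.37-fold for *Csf2rb* and 1.39-fold for *Csf2rb2*.

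*Csf3r*, the G-CSF receptor gene, lies on the forward strand of chromosome 4 from 126024550 to 126044440. It came to 62.8 CPM in E1776, 62.9 in E5231, 40.7 in E5248 and 41.8 in E5568, the *Ager*-deleted mice. Controls measured 61.8 CPM in E5386, 56.8 in E5642, 48.9 in E6578 and 50.2 in E6732. As with *Csf1r*, E1776 and E5231 lay above all controls and E5248 and E5568 below. Means of 52.0 ± 12.5 CPM in *Ager*-deleted mice and 54.4 ± 6.03 CPM in controls (SD, n = 4 each) gave a log2 fold change of -0.06 (SE 0.15, 95% interval -0.41 to 0.28). An exact two-sided permutation test of the mice gave p = 0.657, and edgeR's adjusted p was 1 (exact) and 0.955 (quasi-likelihood). *Csf3r* is best known from neutrophils. The summed level of 16 monocyte and neutrophil genes was 53.4 CPM in E1776, 322 in E5231, 95.1 in E5248 and 207.5 in E5568, the *Ager*-deleted mice, and 324 CPM in E5386, 313 in E5642, 99.8 in E6578 and 189.5 in E6732, the controls. E5386, E5231 and E5642, with the highest sums, were among the 4 mice highest in *Csf3r*, and the fourth, E1776, had the lowest sum of all 8. All 16 of those genes had a log2 fold change below 0, with a median of -0.41, against 9348 of all 19470 tested genes below 0. Of the 16, 0 were called and 0 had an unadjusted p under 0.05 in edgeR's exact test. They were measured in the same 8 mice, so they are not 16 separate observations. Their part in the *Csf3r* values was not tested.

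Without the 2 controls high in skeletal muscle genes, a choice made after seeing the data, the log2 fold changes were -0.01 for *Csf1*, -0.20 for *Il34*, 0.11 for *Csf1r*, 0.25 for *Csf2ra*, 0.05 for *Csf2rb*, -0.09 for *Csf2rb2* and 0.07 for *Csf3r*, and 0 of 7 were called by the exact test. The estimate changed sign for *Csf2rb* and *Csf3r*. When mice were left out 1 at a time, the sign held throughout for *Il34* and *Csf2ra* only, at -0.20 to -0.03 and at 0.05 to 0.26. It turned without E5248, E5386, E5568 or E6732 for *Csf1* (0.0021 to 0.07), without E1776 (-0.07) or E5231 (-0.002) for *Csf1r*, without E5568 for *Csf2rb* (0.03), without E5248 for *Csf2rb2* (0.0088) and without E5248 (0.04) or E5568 (0.03) for *Csf3r*.

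**Figure D2:**
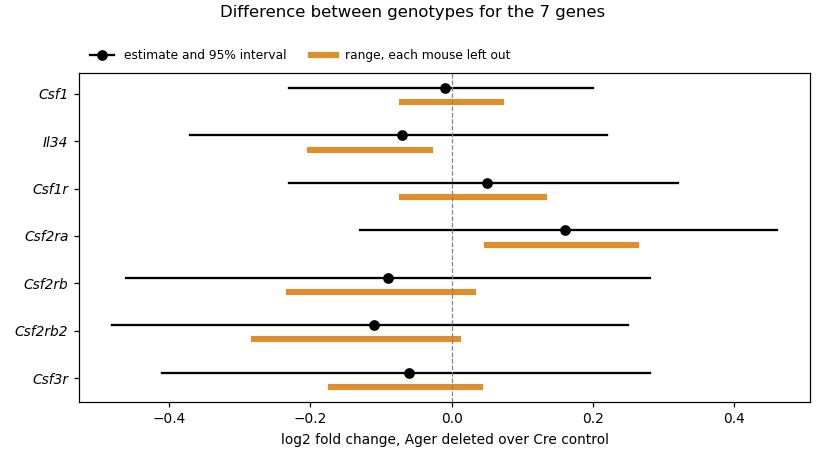
Log2 fold change of *Ager*-deleted mice over controls for the 7 genes, with the 95% interval of edgeR's quasi-likelihood fit of 8 mice in black and the range of exact test estimates with each mouse left out in turn in orange. All 7 intervals cross 0. The orange range stays on 1 side of 0 for *Il34* (-0.20 to -0.03) and *Csf2ra* (0.05 to 0.26).

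Levels of different genes were compared per kilobase of exon. *Csf1r* was the highest of the 7 at 61.7 ± 8.42 CPM per kilobase (SD, n = 8), above *Csf1* at 26.8 ± 2.67 in 8 of 8 mice. *Csf2ra* followed at 19.5 ± 3.17 and *Csf3r* at 14.7 ± 2.54 CPM per kilobase, again each below the gene before it in 8 of 8 mice. *Il34* was at 9.07 ± 1.25 CPM per kilobase, and the signaling chains *Csf2rb2* and *Csf2rb* were lowest at 2.33 ± 0.408 and 2.15 ± 0.391 CPM per kilobase (SD, n = 8). The ranges over the 8 mice were separate between *Csf1r* and *Csf1*, between *Csf3r* and *Il34* and between *Il34* and *Csf2rb2*. They overlapped between *Csf1* and *Csf2ra*, between *Csf2ra* and *Csf3r* and between the 2 chains. *Csf2rb2* lay above *Csf2rb* in 6 of 8 mice by the length of all annotated exons, but below it in 8 of 8 mice when the length of 1 coding transcript was used (3.20 CPM per kilobase of transcript for *Csf2rb* against 2.33 for *Csf2rb2*), so the order of this pair turns with the length. The ligands of the second receptor family were hardly detected. *Csf2* had 0 or 1 count per mouse, *Csf3* 0 to 3 and *Il3* 0 or 1, so that differences could not be detected at this depth, and *Il5*, with 1 to 6, was not tested.

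**Figure D3:**
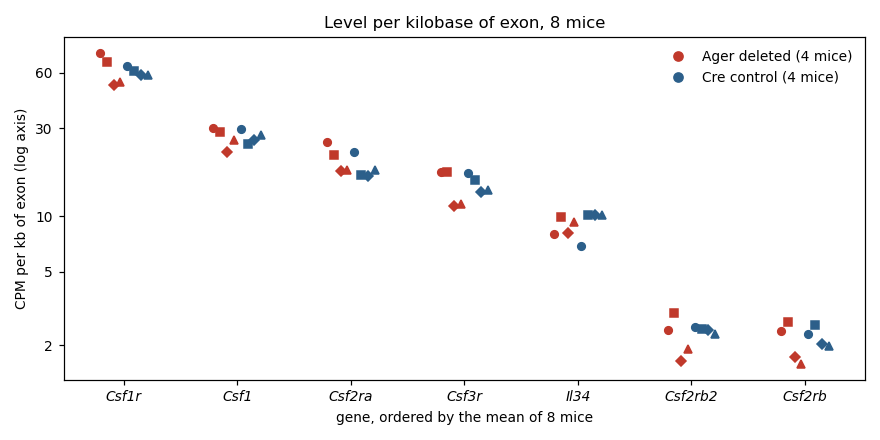
Level of each gene in CPM per kilobase of exon (log axis) in 4 *Ager*-deleted mice (red) and 4 controls (blue), with genes ordered by the mean of 8 mice. *Csf1r* is highest, at 51.5 to 76.9, and the *Csf2rb2* and *Csf2rb* points overlap, at 1.64 to 2.99 and 1.58 to 2.67.

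The balance of the ligands also overlapped between the genotypes. Per kilobase, *Csf1* was 3.77 times *Il34* in E1776, 2.87 in E5231, 2.74 in E5248 and 2.78 in E5568 among *Ager*-deleted mice. In controls the ratio was 4.28 in E5386, 2.45 in E5642, 2.53 in E6578 and 2.75 in E6732. E5386 and E1776, with the lowest *Il34* levels of all 8 mice, had the largest ratios. *Il34* made up 18.9% to 29.0% of the summed ligand level. Both ligands together were 0.494 to 0.658 times *Csf1r* per kilobase, with means of 0.575 ± 0.0679 (SD, n = 4) in *Ager*-deleted mice and 0.598 ± 0.0449 (SD, n = 4) in controls.

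*Csf1r*, *Csf2rb*, *Csf2rb2* and *Csf3r* were high and low in much the same mice, which were also those high and low for the microglia genes. *Il34* did not follow them over all 8 mice. On the log2(CPM + 1) scale, 28 relations among the 7 genes and the mean of the 22 microglia genes were computed over the 8 mice, with exact permutation p-values over 40320 pairings adjusted over the 28. Of the 28, 12 had an adjusted p under 0.05 for Pearson's r and 9 for Spearman's rho. Both values of a point come from the same library, and the relations describe levels only. *Csf2rb2* followed the microglia genes most closely (Pearson's r = 0.99, exact permutation p = 0.000124, adjusted p = 0.00347, Spearman's rho = 0.93, p = 0.00223, adjusted p = 0.0208), and r was still 0.94 without the 2 mice farthest from the median, E5248 and E5568. *Csf3r* (r = 0.91, exact permutation p = 0.000496, adjusted p = 0.00694, rho = 0.95, p = 0.00114, adjusted p = 0.016) and *Csf2rb* (r = 0.88, exact permutation p = 0.00345, adjusted p = 0.0138, rho = 0.88, p = 0.00724, adjusted p = 0.029) gave 0.74 and 0.76 without those mice. For *Csf1r* r was 0.81 (exact permutation p = 0.0154, adjusted p = 0.0392, rho = 0.90, p = 0.00456, adjusted p = 0.029), and it fell to 0.55 without E5248 and E5568, so that relation rests in part on those mice. *Csf1* was at r = 0.75 (exact permutation p = 0.0323, adjusted p = 0.0602, rho = 0.69, p = 0.0694, adjusted p = 0.13), with 0.35 without the 2 mice. *Csf2ra* was at r = 0.51 (exact permutation p = 0.201, adjusted p = 0.281, rho = 0.52, p = 0.197, adjusted p = 0.306) and *Il34* at r = 0.09 (exact permutation p = 0.84, adjusted p = 0.871, rho = -0.21, p = 0.619, adjusted p = 0.667). With the genotype means removed, the r values with the microglia genes were 0.99 for *Csf2rb2*, 0.91 for *Csf3r*, 0.87 for *Csf2rb*, 0.86 for *Csf1r*, 0.76 for *Csf1*, 0.68 for *Csf2ra* and 0.05 for *Il34*.

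**Figure D4:**
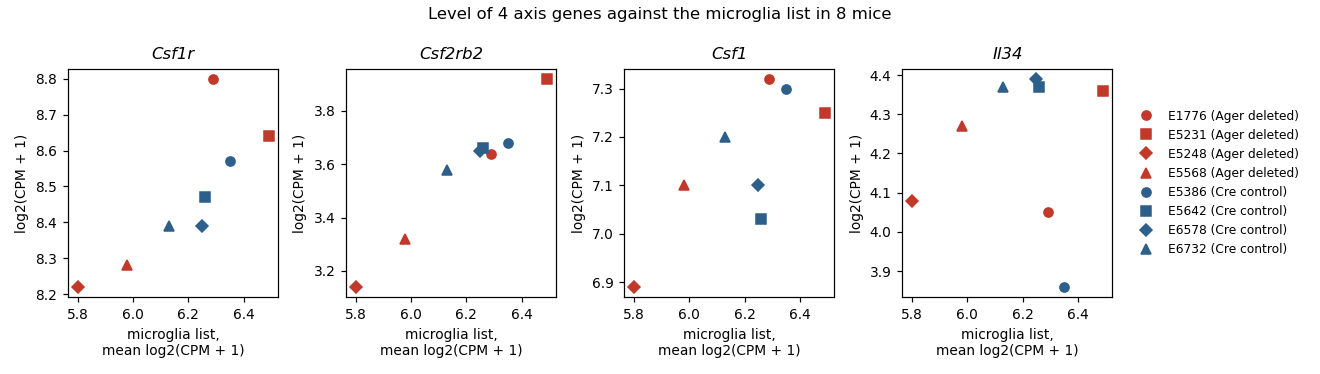
Level of *Csf1r*, *Csf2rb2*, *Csf1* and *Il34* (log2(CPM + 1), vertical axes) against the mean of 22 microglia genes (log2(CPM + 1), horizontal axes), 1 point per mouse, with *Ager*-deleted mice in red and controls in blue. *Csf2rb2* lies close to a line (r = 0.99, n = 8), *Csf1r* and *Csf1* scatter more (r = 0.81 and 0.75), and *Il34* shows no clear slope (r = 0.09), with control E5386 at the bottom.

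Among the receptor pairs, *Csf1r* and *Csf3r* were closely related (r = 0.93, exact permutation p = 0.000769, adjusted p = 0.00718, rho = 0.98, p = 0.000397, adjusted p = 0.0111, and r = 0.98 without E1776 and E5248). *Csf2rb* and *Csf3r* had r = 0.93 (exact permutation p = 0.00166, adjusted p = 0.00931, rho = 0.88, p = 0.00724, adjusted p = 0.029), with 0.82 without E5248 and E5568. The near-identical *Csf2rb* and *Csf2rb2* had r = 0.87 (exact permutation p = 0.00308, adjusted p = 0.0138, rho = 0.86, p = 0.0107, adjusted p = 0.0375), a value to which shared reads can add. *Csf1* and its receptor *Csf1r* were at r = 0.81 (exact permutation p = 0.0147, adjusted p = 0.0392, rho = 0.81, p = 0.0218, adjusted p = 0.0554), and at 0.60 without E1776 and E5248. *Csf2ra* was related to *Csf1r* by Pearson's r only (r = 0.85, exact permutation p = 0.00675, adjusted p = 0.0236, rho = 0.67, p = 0.0831, adjusted p = 0.145), with 0.74 without E1776 and E5248. Between *Csf2ra* and *Csf1* r was 0.79 (exact permutation p = 0.0211, adjusted p = 0.0491, rho = 0.88, p = 0.00724, adjusted p = 0.029), and 0.89 without E1776 and E5248. The ligands *Csf1* and *Il34* were at r = -0.24 (exact permutation p = 0.558, adjusted p = 0.666, rho = -0.45, p = 0.267, adjusted p = 0.394). Over the 8 mice *Il34* had r = -0.24 with *Csf1r*, 0.03 with *Csf2rb*, 0.22 with *Csf2rb2* and -0.18 with *Csf3r*. Without E1776 and E5386 these values were 0.70, 0.60, 0.84 and 0.72, so the absence of a relation rests largely on those mice. With *Csf2ra* its r was -0.61, and 0.06 without them.

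Taken as a share of the summed microglia level, *Csf2rb2* was nearly constant, at 0.345% to 0.392% in the 8 mice, a coefficient of variation of 3.81% against 17.5% for its CPM. For *Csf3r* the coefficient of variation was 7.69% as a share and 17.2% in CPM, and for *Csf2rb* 9.04% and 18.1%. *Csf1r* was 10.3% to 14.0% of the sum, with coefficients of variation of 10.3% and 13.6%. The coefficient of variation did not fall for *Csf1*, at 12.5% as a share and 9.98% in CPM, or for *Csf2ra*, at 16.6% and 16.3%. The share of *Csf1r* was highest in E5248, the mouse with the lowest microglia sum, and lowest in E5231, the mouse with the highest. In every one of these shares the genotypes overlapped.

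Marker genes of other cell types moved with the axis genes too, and these relations were chosen after seeing the data and carry no test. *Csf3r* and *Csf1r* had r = 0.91 and 0.86 over the 8 mice with the mean of 10 astrocyte genes, and -0.87 and -0.70 with that of 14 neuron genes. Without E5248 and E5568 the astrocyte values were 0.71 and 0.76, against 0.74 and 0.55 with the microglia genes. Without E5248 and E6578 the neuron values were -0.83 and -0.53. *Csf2rb2* had r = 0.89 with the astrocyte genes, and 0.36 without E5248 and E5568. With the neuron genes its r was -0.81, and -0.93 without E5248 and E6578. *Csf1* had r = 0.70 with 10 oligodendrocyte genes, and 0.90 without E5386 and E5642. *Il34*, whose protein is known as a neuronal product, had r = 0.09 with the neuron genes. Its r was 0.81 with the 10 genes of leptomeninges and fibroblasts, which dropped to 0.08 without E1776 and E5386. With 10 genes of border macrophages it was 0.93, and 0.72 without those mice. The latter value was not particular to *Il34*. Without the same mice, r with the border macrophage genes was 0.79 for *Csf2rb*, 0.77 for *Csf3r*, 0.69 for *Csf2rb2* and 0.65 for *Csf1r*. It was 0.37 for *Csf1* and -0.05 for *Csf2ra*. *Csf3r* had r = 0.27 with the 16 monocyte and neutrophil genes, and 0.65 without E1776 and E5248. The part of any of these cell types in the levels of the axis genes was not tested.

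**Figure D5:**
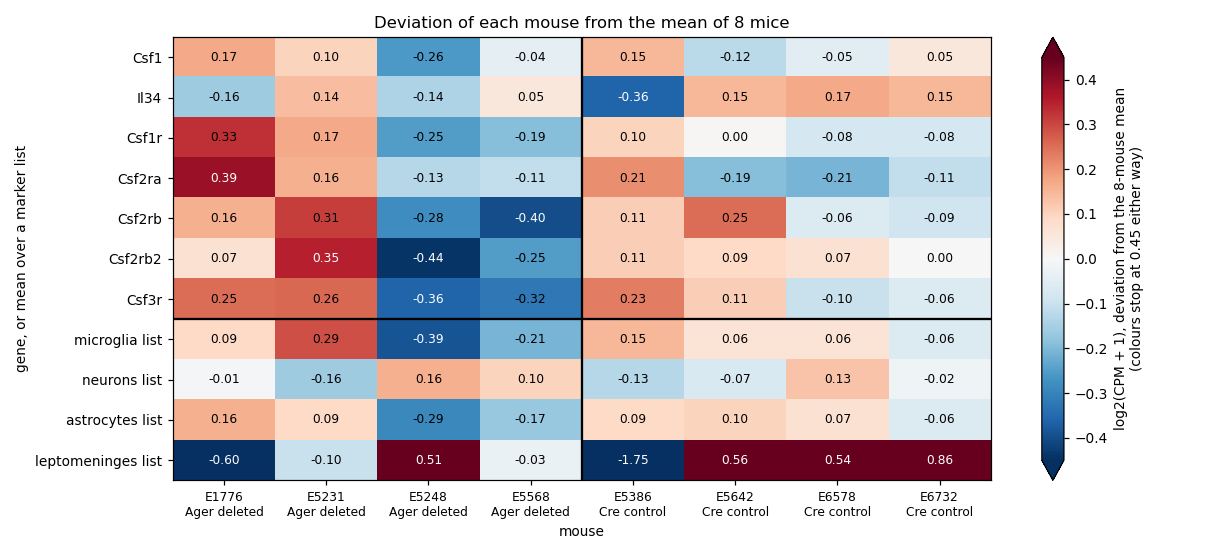
Deviation of log2(CPM + 1) from the mean of 8 mice for each axis gene and, below the line, for the mean of 4 marker lists, with *Ager*-deleted mice left and controls right of the vertical line, where colors stop at 0.45 in either direction. E5248 is low for all 7 genes, from -0.44 for *Csf2rb2* to -0.13 for *Csf2ra*, and is at -0.39 for the microglia genes, whereas *Il34* is lowest in E5386, at -0.36.

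Genes acting with these receptors were taken from hand-written lists. Of 5 other receptors that bind these ligands or modify their signaling, 4 were tested and 0 were called, with a median log2 fold change of -0.02. *Trem2*, a microglial receptor that signals through an adaptor which also serves CSF1R, was at 141 and 143.5 CPM in *Ager*-deleted mice and controls, and *Ptprz1*, described as an alternative receptor for IL34, was at 276 and 278 CPM. *Il3ra*, the IL3-binding chain, was at 9.78 and 9.04 CPM (log2 fold change 0.11), and *Sdc1*, a proteoglycan that binds IL34, was at 6.39 and 7.02 CPM (log2 fold change -0.14). *Il5ra* had 0 to 5 counts and was not tested.

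Of 29 genes of CSF1R signaling all were tested and 0 were called, with 11 log2 fold changes above 0, 18 below and a median of -0.01. The most abundant per kilobase were *Tyrobp*, the adaptor DAP12, at 169 and 169.6 CPM in *Ager*-deleted mice and controls, *Mapk3*, the kinase ERK1, at 188 and 179.9 CPM, and *Ptpn11*, the phosphatase SHP2, at 341 and 360.5 CPM (log2 fold change -0.08). The smallest exact test p-values were those of the kinase gene *Src* (log2 fold change 0.14, SE 0.07) and the ubiquitin ligase gene *Cblb* (log2 fold change -0.14, SE 0.07), neither called by edgeR's exact test (adjusted p = 1 for both). In these 29 genes the log2 fold changes ran from -0.14 to 0.14.

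The JAK-STAT list of the second receptor family had 14 genes, all tested, 0 called and with a median log2 fold change of 0.0038. Its most abundant members per kilobase were the survival genes *Mcl1*, at 175 and 187 CPM, and *Bcl2l1*, at 147 and 135 CPM, and the kinase gene *Jak1*, at 202 and 199 CPM in *Ager*-deleted mice and controls. *Socs2*, a feedback inhibitor induced by STAT5, had a log2 fold change of -0.24 (SE 0.13) and *Stat5b* itself one of 0.10 (SE 0.05), neither called by edgeR's exact test (adjusted p = 1 for both).

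Of 17 myeloid transcription factors, all tested, 0 were called and 2 had an unadjusted p under 0.05 in edgeR's exact test, against 4.26% of all tested genes. These were *Mef2a*, at 91.3 and 106 CPM in *Ager*-deleted mice and controls (log2 fold change -0.21, SE 0.06, adjusted p = 0.836 in edgeR's exact test), and *Mef2c*, at 33.5 and 39.4 CPM (log2 fold change -0.23, SE 0.07, adjusted p = 0.871 in edgeR's exact test). Both encode factors that act in microglia and also in neurons and muscle. For each of them all 4 controls lay above all 4 *Ager*-deleted mice, where 3.88% of all tested genes do not overlap in either direction, and the pair was picked for its small p-values. The median of the list was 0.0079. Abundant factors per kilobase included *Cebpa*, a regulator of myeloid differentiation, at 47.6 and 43.2 CPM, and *Sall1*, a microglial identity factor, at 68.7 and 72.5 CPM.

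Among 16081 genes with a mean of at least 1 CPM, the pattern over the 8 mice most like that of *Csf1r* was found in *Slc12a4* (r = 0.984), *Itgb5* (r = 0.981) and *Cyfip1* (r = 0.975). For *Csf1* they included *Pdcd1* (r = 0.970) and *Zfp553* (r = 0.966), and for *Il34* they were *Shpk* (r = 0.978), *Nbl1* (r = 0.975) and *Lbp* (r = 0.962). *Lbp* was at 3.42 CPM in E5386 against 5.97 to 15.2 CPM in the remaining 7 mice. The closest gene was *Tjap1* for *Csf2ra* (r = 0.976), *Pgm2* for *Csf2rb* (r = 0.979), *Fmnl3* for *Csf2rb2* (r = 0.987) and *Erv3* for *Csf3r* (r = 0.982). With 8 mice and so many candidates, values this high are a ranking only, and no test was made. The number of candidates with r over 0.9 was 32 for *Il34*, 55 for *Csf1* and 240 for *Csf2rb2*.

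Promoter sequence was at hand for 4 of the 7 genes in the RefSeq table for GRCm38.p6, *Csf1*, *Csf2ra*, *Csf2rb2* and *Csf3r*. The 250 bases before each start were searched on both strands for GAGGAA, the core of the motif bound by the myeloid factor PU.1, whose other strand reads TTCCTC. It occurred once in *Csf2rb2*, once in *Csf3r* and 2 times in *Csf2ra*, and it was not found in *Csf1*. Of 32851 promoters in the table, 7639 (23.3%) hold it in the same window. The promoter of *Csf2rb2*, the gene that followed the microglia genes most closely, and that of the ligand *Csf1* are shown, with the motif in capitals.
Csf2rb2, chr15:78305722-78305971, reverse strand: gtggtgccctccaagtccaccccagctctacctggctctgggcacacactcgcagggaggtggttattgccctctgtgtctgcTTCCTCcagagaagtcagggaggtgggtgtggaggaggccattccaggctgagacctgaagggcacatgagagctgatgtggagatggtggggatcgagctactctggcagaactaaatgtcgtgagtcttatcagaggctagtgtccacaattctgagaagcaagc
Csf1, chr3:107760470-107760719, reverse strand: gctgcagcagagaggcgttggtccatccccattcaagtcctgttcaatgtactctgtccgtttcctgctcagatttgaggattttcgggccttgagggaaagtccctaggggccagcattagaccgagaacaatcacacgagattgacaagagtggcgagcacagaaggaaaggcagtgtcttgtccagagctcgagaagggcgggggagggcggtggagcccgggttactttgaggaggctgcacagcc
In *Csf2rb2* the match begins 167 bases before the start, on the strand opposite to the gene. In *Csf3r* it begins 86 bases before the start, and in *Csf2ra* 14 and 8 bases before it, side by side. A match describes these letters only, and no measurement of binding is part of these data.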

How the data were processed

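Reads were quality-filtered by the authors, mapped to mm10 (STAR 2.7.3a) and counted on GENCODE M25 genes (featureCounts, Subread 1.6.3). The authors deposited raw counts per gene and a table of log2 TMM-normalized CPM. The submitters' processing notes also name Trimmomatic 0.36, SAMtools and edgeR 3.26.8. The deposited log2 values were used only to check the filter and normalization. They cover 19470 genes and were recomputed from the counts within 4.78e-06.

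Genes kept by filterByExpr at its minimum of 10 counts were scaled by TMM. The exact test of edgeR 4.0.16 (R 4.3.3) used estimateDisp dispersions, fitted with no design matrix. Standard errors and 95% intervals are from the quasi-likelihood fit. The threshold was an adjusted p of 0.05. Single values per mouse were compared as log2(CPM + 1) over the 70 assignments of 8 mice to 4 and 4. Tests were checked on simulated data with log2 changes of 1.5. That is larger than the estimate of any axis gene, so the check does not cover changes of their size. Exon lengths and positions are from GENCODE M21 on GRCm38, an earlier release than the authors' M25. No pair of mice shared a library (chi-square per degree of freedom 17.3 to 131 over 28 pairs and 19611 genes). The p-values measure the spread between 8 mice, and floors and counts cover counting error only.

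The 7 genes and all lists were chosen with earlier results of these data known, and the lists are hand-written and not those of a database. Named genes are the 7 axis genes, *Ager*, and in each pathway list the 3 with the highest level per kilobase and the 2 with the smallest exact test p. For likeness, the 3 genes with the highest r were named for *Csf1*, *Il34* and *Csf1r* and the highest 1 for the others. Some genes that meet this rule are not reported here. Genes of the marker lists, antisense genes and *Lbp* values were added after their values were seen. Alternatives included scaling by RLE, by the upper quartile or by library size alone, low-count filters, dispersions, a pseudocount of 0.25 CPM, DESeq2 1.42.0, limma-voom 3.58.1, removal of skeletal muscle genes, a threshold of 0.10 and each mouse left out. Leaving out both controls high in skeletal muscle genes was added after seeing the data. The human and cell culture data are not analysed here.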

Additional observations from a re-analysis of the deposited data

Results flagged for a closer look

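*Il34* in Cre-expressing control E5386 was at 13.5 CPM, from 495 counts, against 19.7, 20.0 and 19.7 CPM in the other 3 controls. Its gap to the nearest control was 0.959 of the range of the 4 controls, which is past the 95% critical value of Dixon's test for 4 values. The test was run on 14 groups, the 7 genes in each genotype, and chance alone would pass about 1 group in 20. The log2 fold change of *Il34* was -0.07 with this mouse and -0.20 without it. E5386 was also the lowest of 8 mice for the border macrophage genes, at 55.9 CPM in sum, and for the leptomeningeal and fibroblast genes, at 157 CPM. It was the second highest for skeletal muscle genes, at 1204 CPM. The part of any of these in the *Il34* value was not tested.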

How the results depend on the processing

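No axis gene passed an adjusted p of 0.05 under any alternative, and the adjusted p of the 7 genes over the alternatives lay between 0.842 and 1. With library size only, which moved the median log2 fold change of all genes from 0.0069 to 0.032, that of *Csf1* changed sign to 0.0095 and its difference in mean log2(CPM + 1) to 0.0075. Without the 2 controls high in skeletal muscle genes, chosen after seeing the data, the log2 fold change was 0.05 for *Csf2rb* and 0.07 for *Csf3r*. When mice were left out singly, it lay between -0.07 and 0.07 for *Csf1*, -0.20 and -0.03 for *Il34*, -0.07 and 0.13 for *Csf1r*, 0.05 and 0.26 for *Csf2ra*, -0.23 and 0.03 for *Csf2rb*, -0.28 and 0.0088 for *Csf2rb2*, and -0.17 and 0.04 for *Csf3r*. The differences in mean log2(CPM + 1) then lay between -0.08 and 0.07 for *Csf1*, -0.19 and -0.01 for *Il34*, -0.08 and 0.11 for *Csf1r*, 0.05 and 0.25 for *Csf2ra*, -0.23 and 0.0091 for *Csf2rb*, -0.28 and -0.01 for *Csf2rb2*, and -0.19 and 0.02 for *Csf3r*, with exact permutation p-values of 0.0571 or more. Over all genes, the exact test's count of 14 became 8 with at least 1 CPM in at least 4 mice, 78 with common and tagwise dispersions, 9 without skeletal muscle genes, 48 at an adjusted p under 0.10, 67 without the 2 controls and 3 to 98 with each mouse left out (3 without E5231, 53 without E5248, 72 without E5386, 8 without E5568, 8 without E5642, 98 without E6578, 89 without E6732), while the quasi-likelihood test called 1, DESeq2 29 and limma-voom 1. The filter and the left-out mice change the genes or samples that enter the test, and the cause of the other shifts was not tested. The study itself reported 78 differentially expressed genes between these genotypes, not 14. Its number equals the count with common and tagwise dispersions, and which genes are shared is not reported here. No paired analysis was possible because the samples carry mouse IDs and no replicate numbers shared between the genotypes. With 4 mice per genotype the 95% intervals of the 7 genes hold changes of up to 1.17-fold to 1.39-fold, and reads shared by *Csf2rb* and *Csf2rb2* limit both levels.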
